A study of Mus musculus with 2 samples.

Results

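Cell cycle genes were compared between cell types of the injured mouse thalamus after treatment under control Ab or anti-CD9 Ab. The set was a named list of 40 genes, found by symbol among the 33696 genes of both count matrices. It held 14 genes that act in DNA replication, 22 that act in mitosis and 4 abundant genes (the common genes). The common genes were set apart as ones that resting cells can also express. All 40 were found in both libraries. The question was how the UMIs of these genes, and the share of cells that hold them, differed between the antibodies in T cells, NK cells, microglia, macrophages, neutrophils and B-lineage cells. A UMI is a molecular tag that stands for 1 captured RNA molecule.

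The scRNA-seq consisted of 2 libraries of sorted CD45+ cells from the thalamus of C57B6/J mice, 1 per antibody. Mice of both groups had received CAI (cortical ablation injury, the surgical removal of sensorimotor cortex) and a cannula into the thalamus, through which antibody at 1 µg/µl was given from day 7 to day 19. Control Ab was normal rat IgG, anti-CD9 Ab is a blocking antibody against the tetraspanin CD9, and tissue was collected on day 21. An age of 12 weeks is given for the mice of the study as a whole, with females in most experiments. The methods give cells of 4 mice pooled per thalamus library, a number not repeated for the antibody groups. No uninjured or antibody-free library entered this comparison.

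A dividing cell first licenses its DNA with the MCM helicase and copies it with the help of the sliding clamp PCNA and a supply of nucleotides, and then separates its chromosomes with cyclin B, CDK1, Aurora kinases and spindle motors. Genes of the first group are mostly transcribed around the start of S phase, under E2F factors, and genes of the second group in G2 and M phase, through CCAAT boxes and a short element called the cell cycle genes homology region (CHR). In the injured brain, microglia can divide locally, T cells divide after they meet antigen, and mature neutrophils and plasma cells no longer divide.

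The promoters of 6 members are shown because they carry these elements, which the choice of the list did not use. Sequences are from RefSeq (GRCm38.p6), in lower case from 5′ to 3′ on the gene's strand, up to the base before the annotated start. In the following 4 promoters, of genes that act in mitosis, capitals mark CCAAT in either orientation and TTTGAA (the CHR) in either orientation. The stretch of Ccnb2 holds CCAAT only, as its CHR matches lie 167 bases before the start and once just after it.
Top2a (chr11:99024190-99024289, minus strand): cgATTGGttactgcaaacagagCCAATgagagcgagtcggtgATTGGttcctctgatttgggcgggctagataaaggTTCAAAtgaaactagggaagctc
Ube2c (chr2:164769829-164769928, plus strand): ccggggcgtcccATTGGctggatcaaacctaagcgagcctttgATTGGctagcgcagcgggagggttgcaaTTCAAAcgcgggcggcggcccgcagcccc
Cdk1 (chr10:69352913-69353012, minus strand): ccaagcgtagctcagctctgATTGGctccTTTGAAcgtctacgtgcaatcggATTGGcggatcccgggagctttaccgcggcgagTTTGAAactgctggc
Ccnb2 (chr9:70421555-70421654, minus strand): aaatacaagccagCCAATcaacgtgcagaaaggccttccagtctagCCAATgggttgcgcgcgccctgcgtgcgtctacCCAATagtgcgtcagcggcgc
In the next 2 promoters, of helicase subunits, capitals mark CCAAT and the E2F element, searched as TTTCCCGC, TTTGGCGC, TTTCGCGC or TTTGCCGC on both strands. In each of them, 2 matches on opposite strands overlap and are written as 1 run of capitals.
Mcm6 (chr1:128359706-128359825, minus strand): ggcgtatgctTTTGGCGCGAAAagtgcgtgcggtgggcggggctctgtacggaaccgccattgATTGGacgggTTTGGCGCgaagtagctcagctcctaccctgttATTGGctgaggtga
Mcm5 (chr8:75109349-75109508, plus strand): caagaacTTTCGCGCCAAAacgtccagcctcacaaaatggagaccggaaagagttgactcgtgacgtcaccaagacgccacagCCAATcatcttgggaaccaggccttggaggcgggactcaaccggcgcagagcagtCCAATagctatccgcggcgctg

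A promoter window of 300 bases (250 before and 50 after the start) was at hand for 34 of the 40 members, all but Mcm4, Ccna2, Tpx2, Stmn1, Ccne2 and Aurkb. CCAAT was found in 28 of the 34 (82.35%), and in 41.06% of the 27025 genes with a window. The CHR letters were found in 12 of the 19 mitosis genes (63.16%) and 1 of the 12 replication genes (8.333%), against 20.23% of all genes. The E2F letters had the opposite split, with 5 of the 12 replication genes (41.67%), 1 of the 19 mitosis genes (5.263%) and 2.605% of all genes. The 2 groups of members thus differed in the letters of their promoters, and a match is a description of sequence, not a site shown to be bound.

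Across both libraries, 7467 cells under control Ab and 9162 cells under anti-CD9 Ab passed the quality limits, with medians of 1880 and 1419 UMIs. T cell-like cells numbered 2935 under control Ab and 989 under anti-CD9 Ab, and microglia-like cells 2319 and 1081. Macrophage-like cells (232 and 1738) and neutrophil-like cells (68 and 3285) had the opposite imbalance, and NK cell-like (95 and 70) and B-lineage-like cells (167 and 222) were few in both. In the classes compared, no defining marker was at 0 in either library. This is a weak check, as no T cell marker was at 0 in microglia-like or macrophage-like cells either. Per 1000000 UMIs of a class, its own markers summed lower under anti-CD9 Ab, except those of NK cells (9832 and 11406). Microglia markers went from 13233.5 to 8489 and T cell markers from 10343 to 8282, each with 1 of 10 higher. Neutrophil markers fell from 82888 to 38201 (4 of 10 higher), and macrophage markers from 22129 to 20952 (9 of 10 higher). The clustering left out a list of 129 cell cycle genes, which held the genes compared, so their own counts did not form the clusters. Genes outside that list could enter, so division could still shape the clusters and the classes. The libraries shared 54 barcodes, 18 of them among the kept cells. With 1 library per antibody there was no test: the 95% intervals cover counting error only, and the antibody, the pool of mice and the library cannot be told apart.

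The summed level of the 36 replication and mitosis genes was higher under anti-CD9 Ab in T cell-like, NK cell-like, microglia-like and B-lineage-like cells, and lower in macrophage-like cells. In T cell-like cells it was 955 CPM (UMIs per 1000000 UMIs of the class) under control Ab and 3303 under anti-CD9 Ab, a 3.46-fold difference (log2 ratio 1.79, 1.74 to 1.84). It went from 762 to 1601 CPM in NK cell-like cells (1.07, 0.79 to 1.35), from 400 to 692 CPM in microglia-like cells (0.79, 0.72 to 0.86) and from 210 to 377 CPM in B-lineage-like cells (0.85, 0.64 to 1.05). In macrophage-like cells it was 349 CPM under control Ab and 265 under anti-CD9 Ab (−0.40, −0.54 to −0.26). Neutrophil-like cells held 27 UMIs of these genes under control Ab, so their 351 and 399 CPM could not be told apart at this depth (0.18, −0.37 to 0.73). Cells that are not expected in a CD45+ sort and rarely divide gave the background of the assay: 229 and 172 CPM in astrocyte-like cells, and 268 and 118 CPM in oligodendrocyte-like cells. Under anti-CD9 Ab these values rested on 15 and 8 UMIs, with intervals of 96.3 to 284 and 50.8 to 232 CPM. Macrophage-like cells under anti-CD9 Ab (265 CPM) were above both values of their library, and within the astrocyte-like interval. B-lineage-like cells under control Ab (210 CPM) were below both values of theirs. T cell-like cells were above the background with both antibodies.

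**Figure D1:**
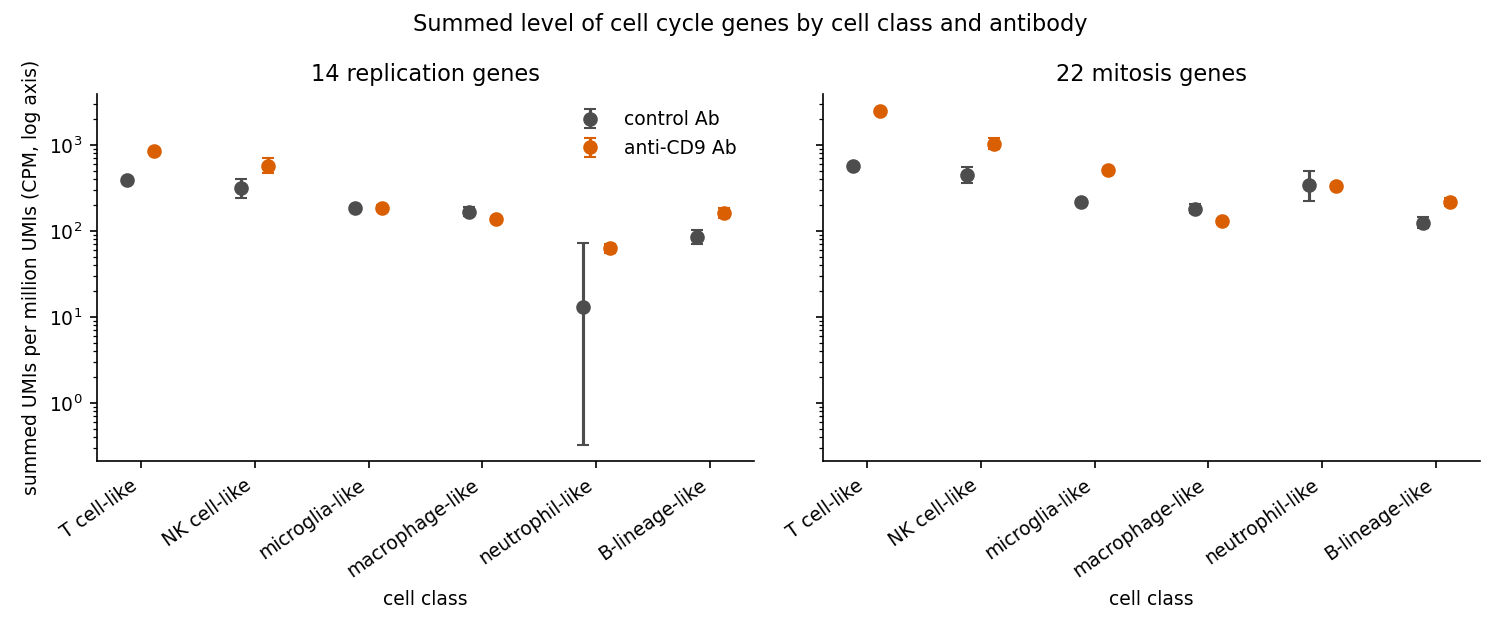
Summed level of the replication and mitosis genes (panels) in each of the 6 cell classes, in CPM on a log axis, with 95% Poisson intervals, for control Ab and anti-CD9 Ab. The mitosis genes of T cell-like cells stand apart, at 561 CPM under control Ab and 2465 CPM under anti-CD9 Ab.

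The genes of mitosis differed more than those of replication. In T cell-like cells, mitosis genes went from 561 to 2465 CPM (log2 ratio 2.14, 2.07 to 2.20) and replication genes from 394 to 837 CPM (1.09, 1.00 to 1.17). In microglia-like cells, the difference lay in the mitosis genes, with 214 CPM under control Ab and 508 CPM under anti-CD9 Ab (1.25, 1.16 to 1.34), whereas replication genes were at 186 and 184 CPM (−0.01, −0.14 to 0.12). The common genes were higher in T cell-like cells (1131 and 2769 CPM) and closer in microglia-like cells (518 and 600.0 CPM).

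**Figure D2:**
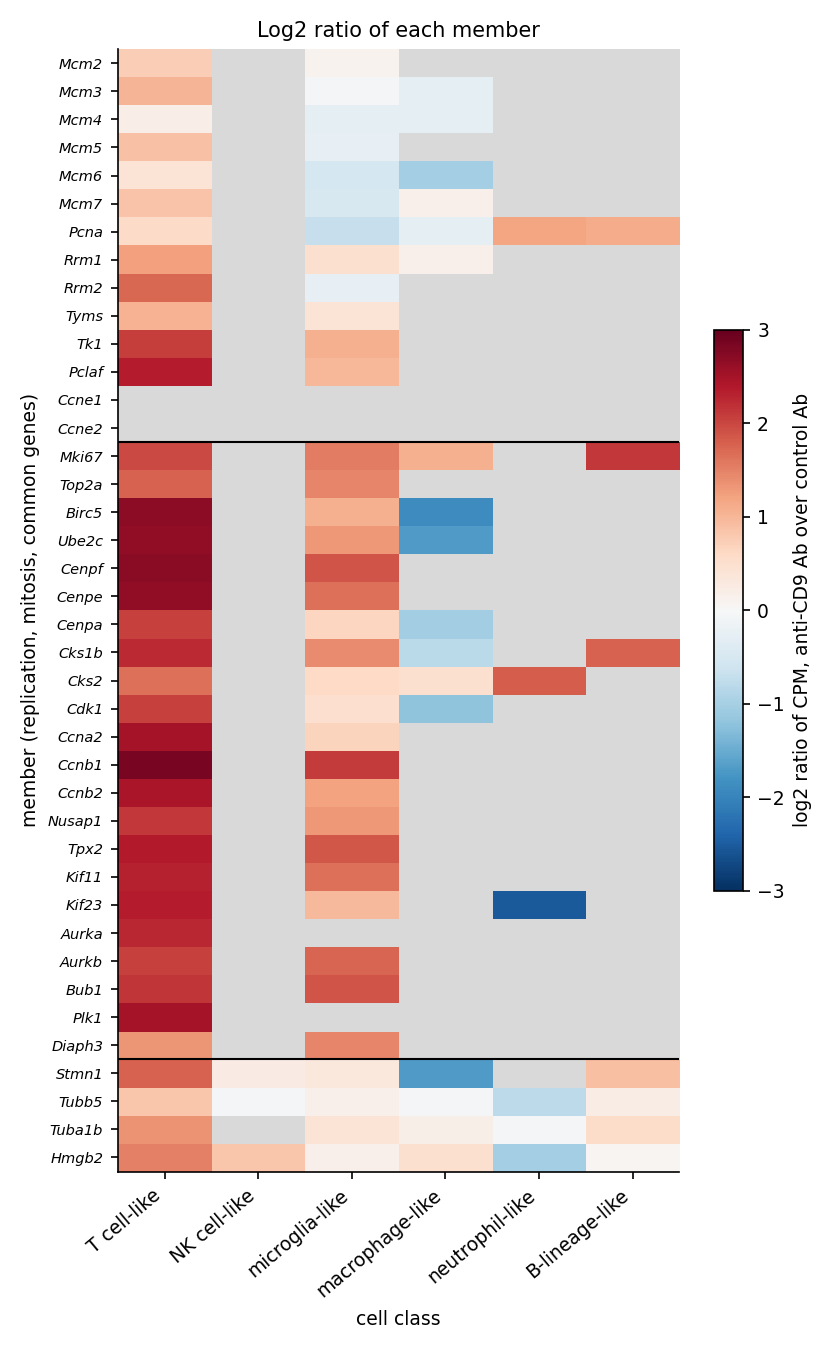
Log2 ratio of CPM, anti-CD9 Ab over control Ab, of each of the 40 members (rows, by role) in each cell class (columns), in color, with combinations under 50 UMIs in both libraries together left blank. The T cell-like column is above 0 for all 38 members with a value, whereas in the microglia-like column the mitosis genes are above 0 and the replication genes lie on both sides of it.

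For T cell-like cells, 31 members were 2-fold or more higher under anti-CD9 Ab and none was 2-fold lower, among the 38 with at least 50 UMIs in both libraries together. Ccne1 and Ccne2, the E-type cyclins that open S phase, were below that minimum. Of all 9837 genes tested in these cells, 3.45% were 2-fold higher and 2.58% 2-fold lower, and the median log2 ratio was −0.08 over all genes and 2.05 over the members. All 22 mitosis genes passed the 2-fold limit, with 6 of 12 replication genes and 3 of 4 common genes.

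Among the regulators of entry into mitosis, Ccnb1, which encodes cyclin B1, showed the highest ratio of any member. It had 34 UMIs under control Ab and 131 under anti-CD9 Ab, or 6.47 and 46.3 CPM (log2 ratio 2.84, 2.29 to 3.38). Its partner kinase Cdk1 went from 25.5 to 106 CPM (2.06), Ccnb2 from 15.0 to 82.3 CPM (2.45) and Ccna2, the cyclin of S and G2 phase, from 10.1 to 56.5 CPM (2.49). Cks1b and Cks2, small subunits that bind cyclin-dependent kinases, went from 33.5 to 158 CPM (2.23) and from 70.4 to 222 CPM (1.66). The mitotic kinases Plk1, Aurka, Aurkb and Bub1 were rare, at 3.23 to 10.3 CPM under control Ab and 18.4 to 42.7 CPM under anti-CD9 Ab. Their log2 ratios lay between 2.06 and 2.51, each over 17 to 54 UMIs under control Ab.

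Genes of the chromosome and the spindle were higher as well. Cenpf and Cenpe, which encode kinetochore proteins, went from 13.7 to 89.0 CPM (log2 ratio 2.70, 2.32 to 3.08) and from 10.1 to 63.9 CPM (2.67). Birc5 (survivin, of the chromosomal passenger complex) went from 28.9 to 186 CPM (2.69), and Ube2c, which feeds ubiquitin to the anaphase-promoting complex, from 247 to 843 UMIs, or 47.0 to 298 CPM (2.66). Top2a, which untangles replicated DNA, and Mki67, which coats mitotic chromosomes and is the common marker of proliferation, had lower ratios, from 71.9 to 243 CPM (1.76) and from 39.9 to 159 CPM (1.99). The spindle genes Nusap1, Tpx2, Kif11 and Kif23 had log2 ratios of 2.12 to 2.38, the centromeric histone gene Cenpa 2.04, and the formin gene Diaph3 the lowest of the mitosis genes, 1.32 (46.4 and 116 CPM).

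Pclaf and the genes of nucleotide supply passed 2-fold among the replication genes, as did 1 of the 6 helicase genes, Mcm3 (27.6 and 56.2 CPM, log2 ratio 1.03). Pclaf, a PCNA-associated factor, had 198 and 549 UMIs, or 37.7 and 194 CPM (2.36), and Tk1 (thymidine kinase) went from 7.61 to 31.8 CPM (2.06). Rrm2 and Rrm1, the subunits of ribonucleotide reductase, had ratios of 1.73 and 1.23, and Tyms (thymidylate synthase) 1.04. The 6 helicase genes were at 189 and 289 CPM together (0.62, 0.48 to 0.75), with Mcm4 the lowest member (40.7 and 46.6 CPM; 0.20, −0.12 to 0.51), next to Mcm6 (62.2 and 83.0 CPM; 0.42, 0.18 to 0.66). Pcna, with 75.3 and 112 CPM (0.58), was also below 2-fold. Among the common genes, Stmn1 (a microtubule destabilizer) had the highest ratio (128 and 438 CPM, 1.77) and the tubulin gene Tubb5 the lowest (473 and 844 CPM, 0.83).

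**Figure D3:**
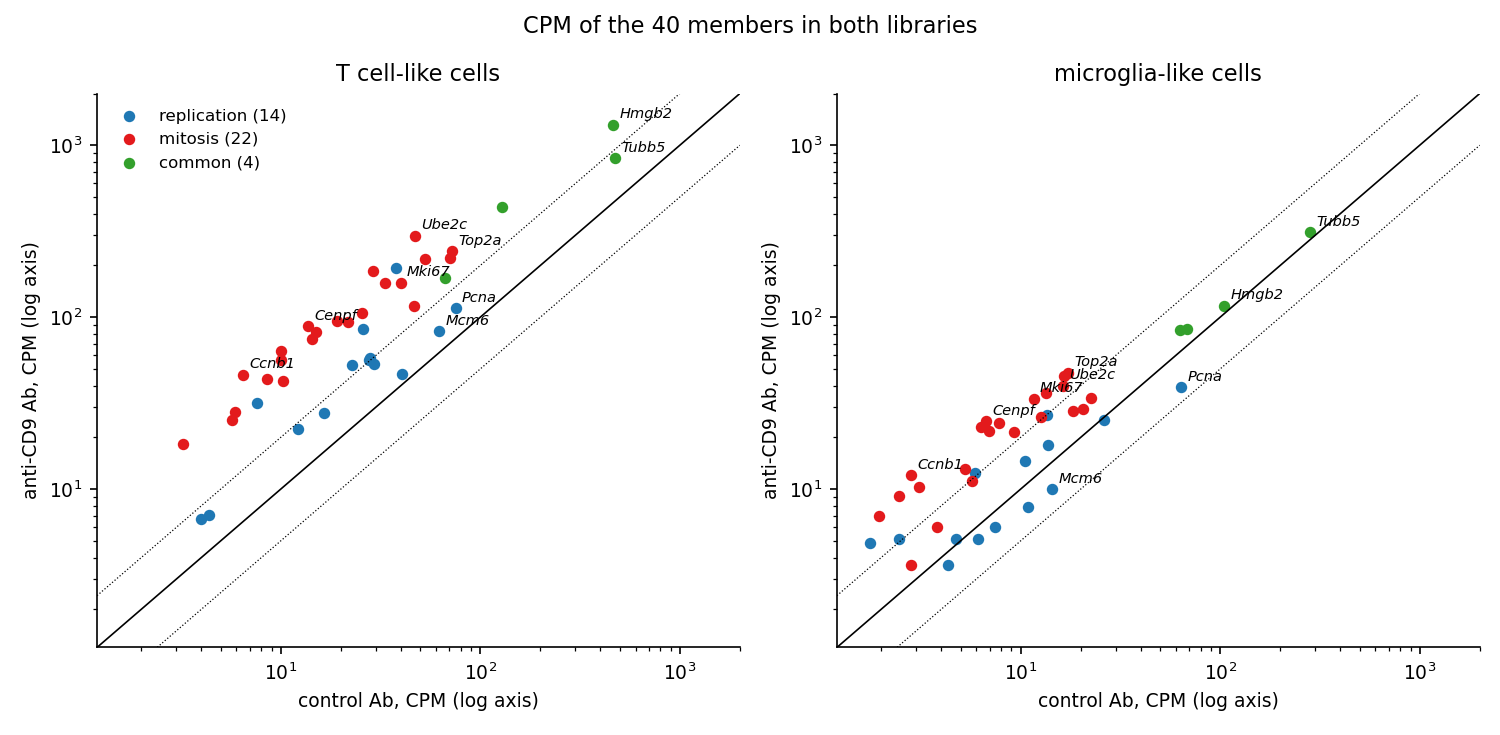
CPM of the 40 members under control Ab (x axis) and anti-CD9 Ab (y axis), both on log axes, in T cell-like (left) and microglia-like cells (right), with colors for the role and lines for equal levels and for 2-fold differences. In T cell-like cells all 22 mitosis genes lie above the upper 2-fold line, and in microglia-like cells 15 of the 20 with a value do.

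More of the T cell-like cells held several of the genes under anti-CD9 Ab. Each cell was thinned to 1000 randomly drawn UMIs, so that genes were counted at equal depth. At least 3 of the 36 genes were then found in 69 of 2637 T cell-like cells under control Ab (2.62%, 2.04 to 3.30%) and in 132 of 937 under anti-CD9 Ab (14.1%, 11.9 to 16.5%), a difference of 11.5 percentage points (9.28 to 13.9). Without thinning, the shares were 7.50% and 24.6%, at median depths of 1590 and 2365 UMIs. Thinning left out 298 and 52 shallower T cell-like cells. Before thinning, the cells that passed had median depths of 2917 and 5371.5 UMIs, and the others with at least 1000 UMIs had 1653 and 2308. Cells just inside the limit, with exactly 3 genes, numbered 30 and 29, cells just outside it, with exactly 2, numbered 184 and 70, and 10 or more genes were found in 21 and 42 cells. No astrocyte-like cell passed the limit among 269 under control Ab and 26 under anti-CD9 Ab, where a limit of 3 cells allows a share of up to 1.12% and 11.5%. None of 129 and 18 oligodendrocyte-like cells did (up to 2.33% and 16.7%). Under control Ab, these astrocyte-like and oligodendrocyte-like cells, all with at least 1000 UMIs, had median depths of 1667 and 1545 UMIs before thinning. The whole classes had medians of 1224.5 and 977.5 UMIs, and thinning left out 145 and 147 of their cells.

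**Figure D4:**
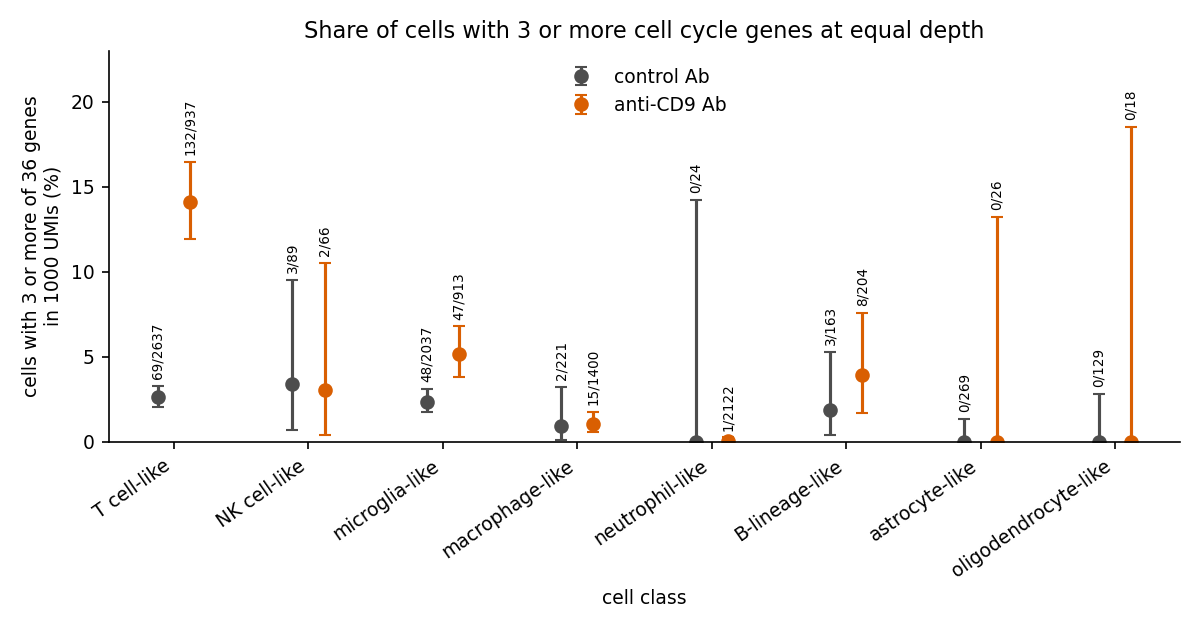
Percentage of cells with 3 or more of the 36 replication and mitosis genes after thinning to 1000 UMIs, with exact 95% binomial intervals, by cell class and antibody. T cell-like cells stand at 2.62% under control Ab and 14.1% under anti-CD9 Ab, microglia-like cells at 2.36% and 5.15%, and the intervals of the other 4 classes compared overlap.

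The limit uses the same 36 genes, so levels inside and outside it are set in large part by the limit and are given as a description. The cells that passed held 44.0% of the mitosis UMIs under control Ab and 82.8% under anti-CD9 Ab. Of the common genes, Stmn1 lay mostly in them before thinning, with 561 of 673 UMIs under control Ab and 1160 of 1239 under anti-CD9 Ab. For Tubb5 it was 607 of 2489 and 1740 of 2388 UMIs. Mki67 and Top2a were found together in 11 cells under control Ab and in 29 under anti-CD9 Ab, where independent detection would give 2.77 and 5.66. Both genes were thus detected in the same cells more often than their separate shares imply, in each library. Among the cells that passed, there were 2.47 mitosis UMIs per replication UMI under control Ab and 3.53 under anti-CD9 Ab. Predicted doublets made up 14.5% and 27.3% of them, and 4.87% and 5.96% of the other T cell-like cells. Without predicted doublets, the difference in shares was smaller, at 7.64 percentage points (5.66 to 9.92), and the log2 ratio of the summed level was 1.64 (1.58 to 1.69).

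A group of 3 sub-clusters each had over 4000 CPM of the 36 genes. Together they held 41 of the T cell-like cells under control Ab (1.40%) and 90 under anti-CD9 Ab (9.10%). They contributed 47.9% and 80.7% of the UMIs of the 36 genes in the class, and 19.5% and 34.4% of their cells were predicted doublets. One of the 3 held 5 cells under control Ab and 39 under anti-CD9 Ab and read Trdc, the constant chain of the γδ T cell receptor, at 4313 and 3248 CPM, beside 168 and 894 CPM of the cytokine gene Il17a. The T cell-like cells outside the 3 sub-clusters still differed, with 516 CPM under control Ab and 817 CPM under anti-CD9 Ab (log2 ratio 0.66, 0.58 to 0.75). Among these, mitosis genes (237 and 490 CPM, 1.05) again had a higher ratio than replication genes (280 and 327 CPM, 0.22).

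The difference was seen in 4 of 5 groups of T cell-like cells formed by single transcripts. Cells with a UMI of Cd8a or Cd8b1, the coreceptor of cytotoxic T cells, passed the limit in 7 of 218 cases under control Ab (3.21%) and in 12 of 55 under anti-CD9 Ab (21.8%). Cells with Cd4, the coreceptor of helper T cells, passed in 15 of 429 (3.50%) and 35 of 215 (16.3%), and cells with Trdc in 16 of 1119 (1.43%) and 59 of 331 (17.8%). T cell-like cells with none of these UMIs passed in 30 of 861 (3.48%) and 26 of 330 (7.88%). In the fifth group, the few cells with both Cd4 and Cd8, 1 of 10 passed under control Ab and 0 of 6 under anti-CD9 Ab. That difference was within counting error (−10 percentage points, −40.4 to 29.9). Their 99 and 7 UMIs of the 36 genes, from 11 and 6 cells, were 2185 and 372 CPM (log2 ratio −2.55, −3.66 to −1.45). The latter interval counts UMIs and leaves out the sampling of so few cells, so the group gave no direction. The log2 ratio of the summed level was 1.98 for Cd8, 1.79 for Cd4, 2.33 for Trdc and 1.03 for cells with none of them. Assignment by a UMI depends on depth, and median depths were 2026 and 2523 UMIs for Cd8, 1809 and 2463 for Cd4, 1528 and 2909 for Trdc, and 1517 and 1839 for the rest.

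**Figure D5:**
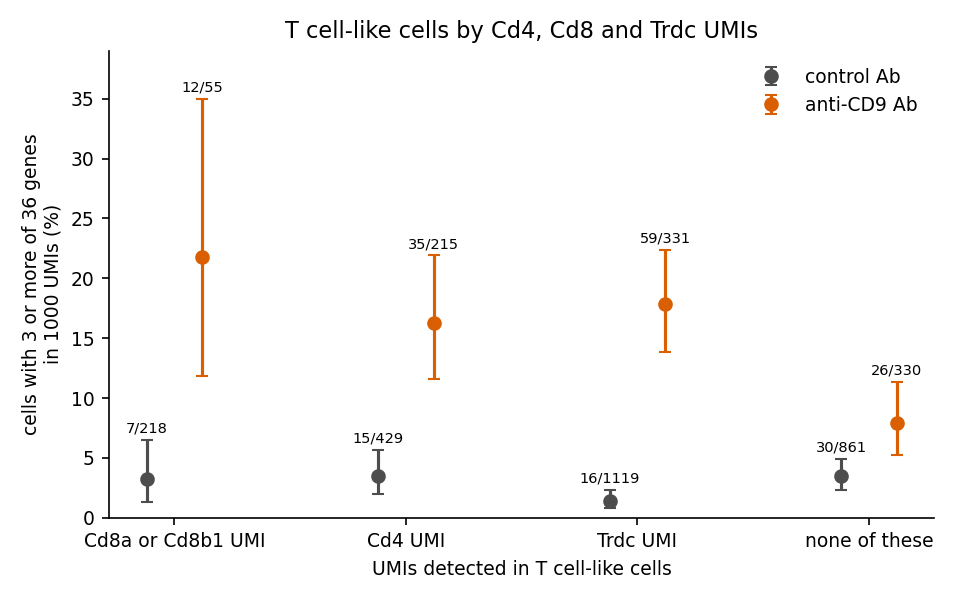
Percentage of T cell-like cells with 3 or more of the 36 genes after thinning to 1000 UMIs, with exact 95% binomial intervals, by the receptor or coreceptor transcript detected and by antibody. The interval under anti-CD9 Ab lies above that under control Ab in each of the 4 groups drawn (cells with both Cd4 and Cd8 are left out), and the group with none of the transcripts has the smallest difference, 3.48% against 7.88%.

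RNA of other cells also differed within the T cell-like class. The 10 neutrophil markers summed to 70.7 CPM under control Ab and 399 CPM under anti-CD9 Ab, with all 10 higher and none at 0 in either library. The 10 microglia markers summed to 421 and 199 CPM, with 1 of 10 higher and none at 0. Neutrophil-like cells under anti-CD9 Ab held the replication genes at 62.9 CPM and the mitosis genes at 336 CPM. T cell-like cells under anti-CD9 Ab held them at 837 and 2465 CPM. Some sub-clusters that stayed unnamed carried markers of both T cells and neutrophils. The largest, with 458 cells under anti-CD9 Ab, held the replication and mitosis genes together at 2011 CPM there. Over both libraries it was at 2129 CPM, and the others were at 411 and 482 CPM. Predicted doublets made up 10.7% of the largest, and 100% and 53.7% of the others. The part of RNA of other cells in the results on T cell-like cells was not tested.

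In microglia-like cells, genes of mitosis were higher under anti-CD9 Ab while genes of the helicase were not. Of the 36 members with at least 50 UMIs, 16 were 2-fold higher and none 2-fold lower, against 3.38% and 4.2% of all 11329 genes tested. The median log2 ratio was 0.82 over the members and 0.04 over all genes. By role, 15 of 20 mitosis genes, 1 of 12 replication genes and none of 4 common genes were 2-fold higher. Ccne1, Ccne2, Aurka and Plk1 were below the minimum.

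Ccnb1 again had the highest ratio, with 32 and 40 UMIs, or 2.82 and 12.1 CPM (log2 ratio 2.10, 1.43 to 2.77), followed by Cenpf, from 6.70 to 24.8 CPM (1.89, 1.44 to 2.34). Mki67 went from 11.6 to 33.6 CPM (1.53), Top2a from 17.3 to 47.5 CPM (1.46), Birc5 from 12.6 to 26.3 CPM (1.06) and Ube2c from 16.3 to 39.96 CPM (1.29). Cdk1, at 20.5 and 29.1 CPM (0.51), had the lowest ratio of the mitosis genes. The replication genes lay on both sides of 0: Tk1, at 5.91 and 12.4 CPM (1.07), was the one that passed 2-fold, and Pclaf, at 13.49 and 26.9 CPM (1.00), fell just short. Pcna was lower under anti-CD9 Ab, with 723 UMIs and 63.8 CPM under control Ab and 130 UMIs and 39.4 CPM under anti-CD9 Ab (−0.70, −0.97 to −0.43). Mcm6 was at 14.4 and 9.99 CPM (−0.53, −1.07 to 0.02), and the 6 helicase genes together at 68.0 and 57.8 CPM (−0.23, −0.46 to −0.01).

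The share of microglia-like cells with at least 3 of the 36 genes was 48 of 2037 under control Ab (2.36%, 1.74 to 3.11%) and 47 of 913 under anti-CD9 Ab (5.15%, 3.81 to 6.79%) after thinning to 1000 UMIs. Without thinning the order turned, at 12.9% under control Ab and 9.34% under anti-CD9 Ab, and thinning left out 282 and 168 shallower cells. Predicted doublets were 22.9% and 38.3% of the cells that passed. In the sub-cluster with over 4000 CPM of the 36 genes (27 and 24 cells), predicted doublets were 25.9% and 70.8%, and this sub-cluster held 28.8% and 53.5% of the UMIs of the 36 genes. In the microglia-like cells outside it, mitosis genes were at 128 and 205 CPM (0.68, 0.54 to 0.81) and replication genes at 163 and 133 CPM (−0.29, −0.44 to −0.14). Without predicted doublets in the class, the log2 ratio of the 36 genes was 0.27 (0.18 to 0.37) and 2 of 31 members with a value were 2-fold higher. It was 0.25 with no integration of the libraries and 0.15 with 20 principal components, so that the size of the microglia-like difference depended on which cells the class held. RNA of other cells differed here too: the 4 erythrocyte markers summed to 14.7 and 415 CPM (all 4 higher, none at 0) and the 10 T cell markers to 235 and 53.9 CPM (none higher, none at 0), and their part was not tested.

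NK cell-like cells, a class of 95 and 70 cells, held 156 UMIs of the 36 genes under control Ab and 285 under anti-CD9 Ab. Mki67 had 2 and 18 UMIs, which lay in 1 and 2 cells, and Top2a 9 and 26, in 5 and 3 cells. For Mki67 and Top2a, the higher UMI counts thus did not come with a clear rise in the number of positive cells. Other members went both ways: Nusap1, Tpx2 and Pclaf were in 1 and 4 cells each and Diaph3 in 2 and 5. Cks1b was in 4 and 2 cells and Mcm4 in 6 and 3. Only Hmgb2, Stmn1 and Tubb5 reached 50 UMIs, and none of these 3 was 2-fold higher or lower, as were 4.51% and 2.5% of the 1441 genes tested. Hmgb2, a chromatin protein gene, was at 337 and 596 CPM (log2 ratio 0.82, 0.38 to 1.26) and Tubb5 at 484 and 472 CPM (−0.04). After thinning, 3 of 89 and 2 of 66 cells passed the limit of 3 genes, a difference within counting error (−0.34 percentage points, −6.80 to 7.35). The cells that passed had median depths of 2031 and 11500 UMIs, and 0% and 50% of them were predicted doublets. The log2 ratio of the 36 genes was 0.38 (0.06 to 0.70) without predicted doublets and 0.03 (−0.44 to 0.50) where cell cycle genes could enter the clustering. The 10 neutrophil markers summed to 58.6 CPM under control Ab and 478 CPM under anti-CD9 Ab in these cells (8 higher, with 6 and 2 at 0). The 10 microglia markers summed to 396 and 146 CPM (2 higher, with 4 and 5 at 0), and the part of this RNA was not tested.

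In B-lineage-like cells, which were led by plasma cell markers, 7 members reached 50 UMIs. Mki67 (10 and 43 UMIs, 7.08 and 30.9 CPM; log2 ratio 2.12, 1.13 to 3.12), Cks1b (13.46 and 45.9 CPM, 1.77) and Pcna (14.9 and 32.3 CPM, 1.12) were 2-fold higher under anti-CD9 Ab, and none was 2-fold lower. All genes tested in this class had a median log2 ratio of 0.32, with 7.48% of 4369 genes 2-fold higher and 1.95% 2-fold lower. The common genes were closer, from Hmgb2 (87.8 and 91.8 CPM, 0.06) to Stmn1 (19.8 and 37.3 CPM, 0.91). The cells that passed the limit of 3 genes were 3 of 163 and 8 of 204, a difference within counting error (2.08 percentage points, −1.85 to 5.90). Left unnamed, and so outside the class, was a sub-cluster nearest to plasma cells with 75% predicted doublets. It held 421 and 1544 UMIs of the 36 genes, whereas the whole class held 296 and 526. In that sub-cluster, 5 of 12 and 16 of 20 cells passed the limit. Sub-clusters differed between the libraries, as 54.5% of the class under control Ab was in 1 sub-cluster that held 20.3% under anti-CD9 Ab. The 36 genes were higher under anti-CD9 Ab in both sub-clusters of the class nearest to plasma cells (146 and 343 CPM, 74.8 and 328 CPM). They were lower in both sub-clusters nearest to B cells (3532 and 867 CPM, 384 and 263 CPM), so the direction of the class was not that of its B cells. In the first of these, 9 control Ab cells held 38.2% of the UMIs of the 36 genes, and the second held 22 and 19 UMIs. The 7 plasma cell markers summed to 74860 and 52305 CPM, with 2 higher under anti-CD9 Ab. Of other cells, the 10 neutrophil markers summed to 57.4 and 570 CPM (all 10 higher) and the 10 T cell markers to 504 and 88.3 CPM (none higher). No marker of these 3 lists was at 0, and the part of this RNA was not tested.

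In macrophage-like cells, 6 of 17 members with a value were 2-fold lower under anti-CD9 Ab and 1 was 2-fold higher, against 6.06% and 8.16% of 9372 genes tested. Birc5 went from 24 UMIs and 16.5 CPM to 33 UMIs and 4.49 CPM (log2 ratio −1.88, −2.64 to −1.12), Ube2c from 19.98 to 6.12 CPM (−1.71), Stmn1 from 51.0 to 15.7 CPM (−1.70), Cdk1 from 11.7 to 5.03 CPM (−1.22), Cenpa from 24.8 to 12.0 CPM (−1.05) and Mcm6 from 17.9 to 8.85 CPM (−1.02). Mki67 had the opposite direction, from 12 to 128 UMIs and 8.27 to 17.4 CPM (1.08, 0.22 to 1.93), and Cks2 was at 28.2 and 39.5 CPM (0.48). Members of the mitosis list thus moved in both directions in this class. With control Ab, 64.7% of the class lay in 1 sub-cluster, which held 9.90% under anti-CD9 Ab and read the 36 genes at 234 and 245 CPM. Another sub-cluster, with 30 control Ab cells at 1146 CPM, held 41.8% of the class's UMIs of these genes, and its 389 anti-CD9 Ab cells were at 318 CPM. Cells with 3 or more of the genes were 2 of 221 (0.90%) and 15 of 1400 (1.07%). The direction of the summed level turned with no integration (log2 ratio 0.12, −0.09 to 0.32), and with cell cycle genes allowed in the clustering it was −0.05 (−0.22 to 0.11). RNA of other cells differed as well: the 10 microglia markers summed to 3784 CPM under control Ab and 869 CPM under anti-CD9 Ab (none higher), and the 4 erythrocyte markers to 781 and 16.2 CPM (none higher). The 10 neutrophil markers summed to 541 and 1060 CPM (all 10 higher). None of these markers was at 0 in either library, and their part was not tested.

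Neutrophil-like cells were read almost only under anti-CD9 Ab. Of 1573 UMIs of the 36 genes there, 1085 were of Cks2 (275 CPM), a level above that of Cks2 in T cell-like cells. With control Ab, the 68 cells held 6 Cks2 UMIs (78.1 CPM; log2 ratio 1.82, 0.66 to 2.97). Of the members, 6 reached 50 UMIs: Cks2 and Pcna (1 and 117 UMIs) were 2-fold higher, Kif23 (6 and 54 UMIs) and Hmgb2 (59 and 1493 UMIs; 768 and 379 CPM) 2-fold lower, against 12.5% and 19.7% of 5975 genes. No helicase UMI was found under control Ab, which allows up to 39.03 CPM, and 79 were found under anti-CD9 Ab (20.03 CPM). Only 1 of 2122 cells under anti-CD9 Ab held 3 of the genes in 1000 UMIs, and none of 24 under control Ab did, where a limit of 3 cells allows a share of up to 12.5%. The 10 macrophage markers summed to 8639 CPM under control Ab and 1656 CPM under anti-CD9 Ab in this class (6 higher, with 4 and 0 at 0), and the 10 microglia markers to 1821 and 376 CPM (none higher, none at 0). The part of this RNA was not tested.

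Other cell cycle genes outside the 40 gave a similar split by role. Of all genes tested, 3.45% were 2-fold higher in T cell-like cells and 3.38% in microglia-like cells. In T cell-like cells, 31 of 34 further mitosis genes were 2-fold higher under anti-CD9 Ab (median log2 ratio 1.69), from Smc4, a condensin subunit (180 and 287 CPM, 0.68), to Aspm, a spindle pole protein gene (3.04 and 27.6 CPM, 3.18). Of 20 further replication genes, 7 were 2-fold higher, with the checkpoint adaptor gene Clspn highest (10.5 and 33.2 CPM, 1.67) and Rpa2, of the single-strand binding complex, lowest (35.2 and 24.0 CPM, −0.55). In microglia-like cells, 16 of 26 further mitosis genes and 1 of 20 further replication genes were 2-fold higher. Hmmr, a spindle assembly gene, was highest (2.91 and 11.8 CPM, 2.02), and Clspn was the replication gene that passed (4.06 and 13.02 CPM, 1.68).

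Regulators of the cycle did not move as 1 group. Among T cell-like cells, 3 of 22 were 2-fold higher, Cdkn1a and the E2F repressors E2f7 (2.66 and 16.3 CPM, log2 ratio 2.61) and E2f8 (3.80 and 17.0 CPM, 2.16), and none was 2-fold lower. Of all genes tested in these cells, 3.45% were 2-fold higher and 2.58% 2-fold lower. The D-type cyclins and their kinases were close to even there, with Ccnd2 at 380 and 334 CPM (−0.19), Ccnd3 at 413 and 516 CPM (0.32), Cdk4 at 99.1 and 83.4 CPM (−0.25) and Cdk6 at 244 and 297 CPM (0.28). Cdkn1a, which encodes the Cdk inhibitor p21, was higher under anti-CD9 Ab in T cell-like (13.9 and 37.4 CPM, 1.43), microglia-like (40.04 and 57.2 CPM, 0.52), macrophage-like (88.9 and 195 CPM, 1.14) and neutrophil-like cells (1 and 803 UMIs, 3.97). In macrophage-like cells, Ccnd1 (57.9 and 16.9 CPM, −1.78) and Cdk6 (75.1 and 32.1 CPM, −1.23) were lower, whereas Ccnd3 was higher (120 and 234 CPM, 0.97). Of 21 regulators tested in this class, 3 were 2-fold higher and 3 were 2-fold lower, against 8.16% and 6.06% of all genes. In microglia-like cells, E2f1 was higher (5.03 and 14.5 CPM, 1.53) and Ccnd2 (15.2 and 7.26 CPM, −1.06) and Cdkn1c, which encodes the Cdk inhibitor p57 (6.35 and 1.21 CPM, −2.39), were lower. Of 24 regulators tested there, 1 was 2-fold higher and 2 were 2-fold lower, against 3.38% and 4.2% of all genes.

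Of all kept cells with 3 or more of the 36 genes after thinning, T cell-like cells were 46.0% under control Ab (69 of 150) and 44.4% under anti-CD9 Ab (132 of 297). They were 2637 of 6384 and 937 of 6534 cells that remained after thinning, and 39.3% and 10.8% of the kept cells. Microglia-like cells were 32.0% and 15.8% of the cells with 3 or more genes. They were 2037 of 6384 and 913 of 6534 cells that remained after thinning, and 31.1% and 11.8% of all kept cells. Cells in sub-clusters that stayed unnamed were 9.33% and 27.9% of the cells with 3 or more genes. Over all kept cells, the share with 3 or more genes was 2.35% and 4.55%.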

How the data were processed

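The authors deposited raw UMI counts per gene and barcode (10x Genomics 3′ v3.1) for 1 library per antibody, made with Cell Ranger 8.0.0 on GRCm39 per the submitters' processing notes, whereas the methods name another version and build. The files held 12245 barcodes (38042608 UMIs) with control Ab and 15173 (40825201 UMIs) with anti-CD9 Ab. As in the methods, cells with 200 to 7500 genes and no more than 2% mitochondrial counts were kept (60.98% and 60.38%). R 4.3.3 and Seurat 5.3.0 integrated the libraries by anchors and clustered them (2000 variable genes, 30 principal components, resolution 0.8), with 129 cell cycle genes left out. Of the 92 sub-clusters, 24 stayed unnamed. A marker counted if it was in at least 10% of cells and at least a log2 of 1 above the median of other clusters. A name needed at least 3 such markers, at least 50% of a type's markers and no more than 50% predicted doublets. It also needed a lead of at least 20 percentage points over every other type. Among its 10 leading genes, no other type could have more markers than its own. Doublets were predicted from simulated doublets (10.95% and 12.48% of kept cells) and kept.

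Counts were summed per class and library and divided by the class total (CPM), with exact Poisson intervals, and shares carry exact binomial or Newcombe intervals (Python 3.11.15, SciPy 1.17.1). A gene entered counts of members with at least 50 UMIs in both libraries together, and a gene at 0 in 1 library was compared with 3 counts, as a share of 0 was with 3 cells. The 36 genes leave out the 4 common ones. The steps were tested on simulated data. Named in each class were the 2 members with the highest and the 2 with the lowest ratio, with further members by role. The members, lists and tests were chosen with earlier results of these data known. The naming limits and the limit of 4000 CPM for a sub-cluster were set after the data were seen. No value column of another sample was found.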

Additional observations from a re-analysis of the deposited data

Results flagged for a closer look

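Signal of the 36 replication and mitosis genes was also present in barcodes that the comparisons did not use. The 6011 barcodes of the anti-CD9 Ab library outside the quality limits held these genes at 1375 CPM (1358 to 1393), against 562 CPM (549 to 574) in the 4778 such barcodes of the control Ab library. Kept cells in sub-clusters that stayed unnamed were at 1509 CPM (1461 to 1559) with anti-CD9 Ab and at 439 CPM (418 to 461) with control Ab. Among these, 1 sub-cluster with 11 and 458 cells was at 3723 and 2011 CPM, at median depths of 1155 and 707 UMIs, and another with 12 and 20 cells, 75% of them predicted doublets, was at 2626 and 6019 CPM beside 16680 and 16221 CPM of the plasma cell gene Jchain. In macrophage-like cells, the log2 ratio of the summed level was −0.40, in the direction opposite to that of T cell-like, NK cell-like, microglia-like and B-lineage-like cells. This difference between classes was not tested. The macrophage-like value was 0.12 with no integration, −0.053 with cell cycle genes in the clustering and −0.00092 as a mean over cells, and the NK cell-like value (1.07) was 0.027 with cell cycle genes in the clustering.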

How the results depend on the processing

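Of 153 recomputed values, 131 kept the sign of the reported one and 105 moved by less than the counting interval (for counts of genes, less than 1.5 times). These counts include values that the alternatives chosen after seeing the data could not change. In T cell-like cells, all alternatives kept the direction. Their log2 ratio of the 36 genes (1.79) was 1.86 with up to 5% mitochondrial counts, 1.64 without predicted doublets, 1.73 with cell cycle genes in the clustering, 1.42 as a mean over cells, 1.41 with thinned counts and 1.69 with unnamed sub-clusters added to the class (an alternative chosen after seeing the data). Their difference in the share of cells (11.5 points) was 7.64 without doublets, 15.3 at 2000 UMIs, 17.1 with no thinning and 8.14 for at least 5 genes, and 18 members were 2-fold higher in thinned counts, where 28 reached 50 UMIs. In microglia-like cells, the log2 ratio (0.79) was 1.00 with up to 5% mitochondrial counts, 0.25 with no integration, 0.27 without doublets, 0.15 with 20 principal components, 0.58 as a mean over cells and 0.53 thinned. The share difference was 0.91 points with no integration, 1.25 with 20 principal components and −3.55 (reversed) with no thinning. The members 2-fold higher (16) were 4 with no integration, 2 without doublets, 2 with 20 principal components and 1 thinned, where 12 reached 50 UMIs. In macrophage-like cells, the log2 ratio was 0.12 (reversed) with no integration, −0.56 without doublets, −0.053 with cell cycle genes in the clustering, −0.00092 as a mean over cells and −0.23 thinned. Members 2-fold lower (6) were 1, 2, 2 and 0 with no integration, without doublets, with cell cycle genes in the clustering and thinned, and the share difference was −7.38 points with no thinning and −2.41 for at least 2 genes. In NK cell-like cells, the log2 ratio was 1.41 with no integration, 0.38 without doublets, 0.65 with 20 principal components, 0.027 with cell cycle genes in the clustering, 0.58 as a mean over cells and 0.52 thinned. In B-lineage-like cells it was 0.48 with no integration, 1.06 as a mean over cells and 0.56 without the 50 most abundant genes in the total. Their share difference (2.08 points, −1.85 to 5.90) was within counting error, and was 7.99 points with no thinning. It had the opposite sign with up to 5% mitochondrial counts (−0.36), without doublets (−0.89) and with cell cycle genes in the clustering (−0.59). The neutrophil-like share difference was 0.34 points with up to 5% mitochondrial counts, 0.31 with no integration and 0.61 at 2000 UMIs, and it had the opposite sign for at least 2 genes (−6.50, −24.0 to −0.44) and with no thinning (−2.58, −9.74 to −0.43). The alternative that exempted sub-clusters led by cell cycle genes from the doublet limit, also chosen after seeing the data, changed no value. No sub-cluster met its condition, so it could not change any. Adding unnamed sub-clusters could change only T cell-like values, as those added were all nearest to T cells. No cause of these changes was tested. No paired analysis was possible because each antibody had 1 library. Depth limits the rare genes: 1 UMI is worth more CPM in the small classes, and NK cell-like and control Ab neutrophil-like cells held too few UMIs for most members.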
